A study of Saccharomyces cerevisiae with 10 samples.

Results

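Amino acid synthesis under Gcn4 was described through 53 genes of Saccharomyces cerevisiae, of which 52 encode enzymes of amino acid metabolism and the last is GCN4, the gene of their common activator. The genes were listed by name, and each was named by 1 probe set among the 5498 that name 1 yeast gene. Expression was measured on single-colour arrays in 2 groups of yeast grown at 26 °C in selective medium to mid log phase. The 3 αENaC arrays came from yeast with a plasmid that expresses αENaC, a subunit of the sodium channel of epithelial cells, with an HA tag behind the GPD promoter, a strong constitutive yeast promoter (prs426GPD-αENaC-HA). The 7 control arrays came from yeast with a vector of the same type (pRSGPD426). Sample titles are numbered, and the arrays divide by these numbers into what is called here set 1 (numbers 1 to 4: αENaC 1 and 2, controls 1 and 2), set 2 (5 and 6: αENaC 3, control 3) and set 3 (11 to 14: controls 4 to 7). The labels do not name the parent strain.

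Gcn4 is a transcription factor whose synthesis is controlled mainly at translation. When uncharged tRNA builds up, the kinase Gcn2 phosphorylates the initiation factor eIF2, and ribosomes then pass short upstream reading frames in the GCN4 leader and reach the coding sequence. Gcn4 in turn raises transcription of enzymes in most amino acid pathways, a response known as general amino acid control. An array reads transcript levels alone, so neither translation of GCN4 nor the Gcn4 protein was measured.

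Levels are given as log2(value + 0.03), where the value is the probe set's signal in units of the array mean, after quantile normalization. A difference is αENaC minus control on this scale, with its SE and n = 3 and 7 arrays unless a set is named. Levels of different genes come from different probes and were not set against each other. Replicate arrays inside a set hardly differed from each other (r = 0.997 to 0.999 across probe sets, a description since probe sets are not independent), but control 4 had r = 0.980 to 0.985 with the rest of set 3. Nothing in the sample labels ties each array to its own culture, and the p-values cover array spread only, part of which may be technical. Differences of the lysine genes, and of members where control 4 stood clear of the other controls, are therefore also given without it. In all 10 arrays the α mating-type genes were high and most a-type genes low: the α-factor gene MF(ALPHA)1 lay at 3.08 to 3.11 in αENaC and 3.07 to 3.34 in control arrays, and the α-factor receptor gene STE2 at −2.71 to −2.52 and −2.70 to −2.31, below the background level of −2.03. Of 6 a-type genes 4 had a mean below that level and the pheromone gene MFA1 and STE6 did not, while 0 of 3 α-type genes did. None of these 9 was called. Of 6 haploid genes FUS3 rose and HO fell, and neither was called with the replicate numbers as a block, where no probe set passed. With the set as a fixed block the haploid gene GPA1 was called lower as well, in a fit where 6.86% of all probe sets were lower. The a-type gene ASG7 was also called lower there. It lay at −3.57 to −3.41 in αENaC and −3.47 to −2.62 in control arrays, all below the background level.

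No single member passed the test between αENaC and control yeast, and the genes as a whole were not tested. By limma, adjusted over all 5498 probe sets with a threshold of 0.05, 0 of 53 members rose and 0 fell, against backgrounds of 1.36% and 0.364% of all probe sets. At these backgrounds a count of 0 among 53 is not a result about the members. At an unadjusted p under 0.05 there were 6 members (11.3%), against 18.2% of all probe sets. The median difference was 0.0077 over the members and 0.02 over all probe sets tested, and 27 members were positive and 26 negative. With median centring in place of quantile normalization these medians were −0.21 and −0.0023. The 95% confidence interval of the difference lay within ±0.5 for 34 of 53 members and within ±1 for 48, against 59.3% and 92.9% of all probe sets, so for 48 genes a 2-fold difference lay outside the interval of the single gene. These intervals cover array spread only, as the p-values do, and their fit took no account of the sets. The plot of differences by gene shows the families side by side.

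**Figure D1:**
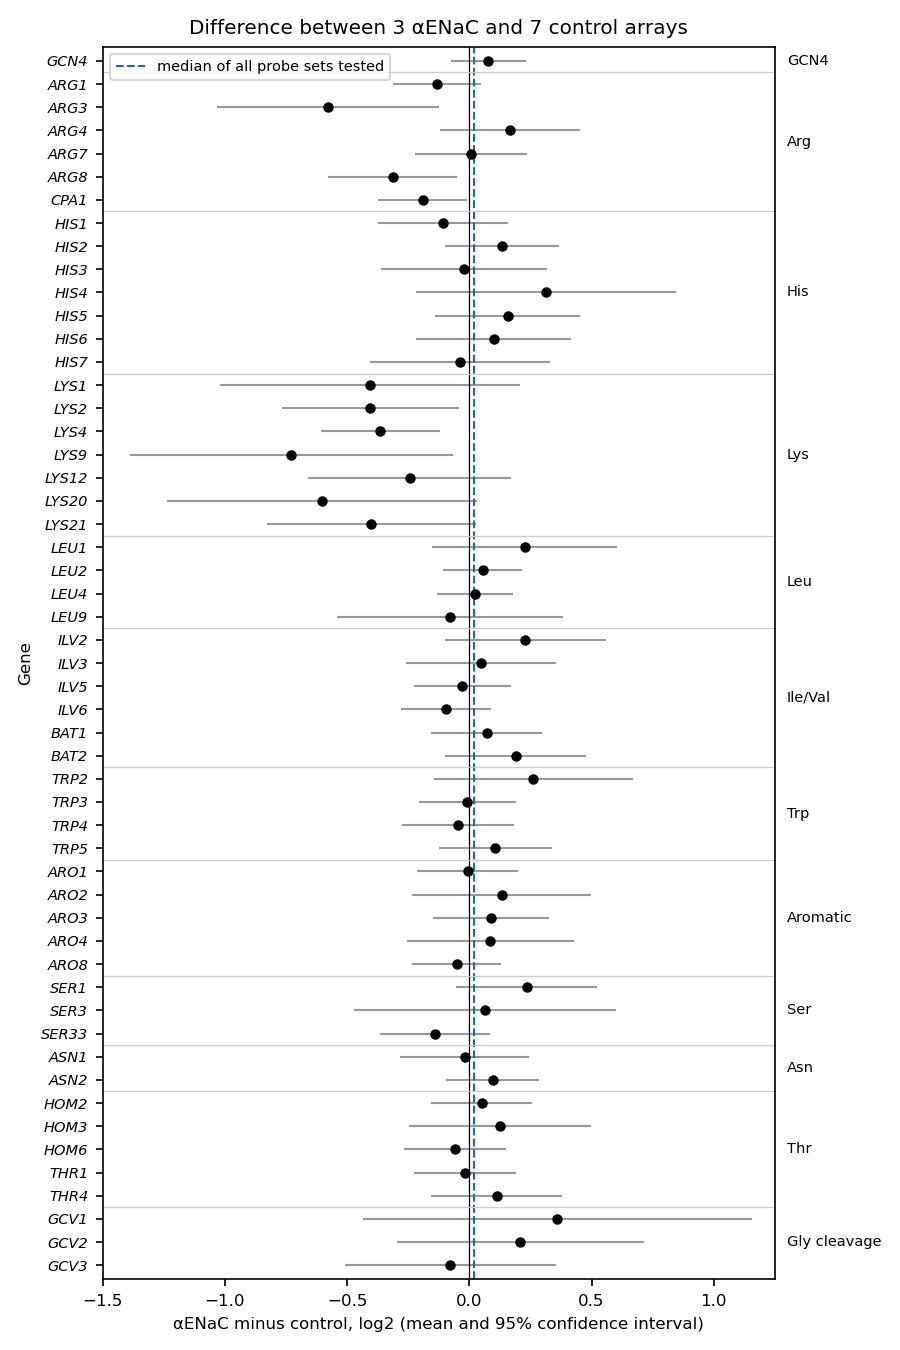
Difference of each of the 53 genes (αENaC minus control, log2, x axis) with its 95% confidence interval, grouped by amino acid family. The lysine genes all lie left of 0, from −0.73 to −0.24, and the dashed line marks the median of all probe sets tested.

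Within set 1 and within set 2 more members were lower in αENaC than higher, to an extent that depended on the set. Within set 2, 45 of 53 members (84.9%) had a lower level in the αENaC 3 array than in control 3, compared with 50.1% of all probe sets, in a comparison of 1 array with 1. Within set 1, 32 of 53 (60.4%) were lower, against 53.8% of all. In both sets 28 members (52.8%) were lower and 4 (7.55%) higher, against 28% and 23.8% of all probe sets. The members' medians were −0.07 in set 1 and −0.18 in set 2, against −0.02 and −0.0010 over all. Among the controls themselves, 34 of 53 members (64.2%) were higher in controls 1 and 2 than in controls 5 to 7 on average, against 55.1% of all. These shares are descriptions: the members are not replicates of one another, and set 2 has no replicate.

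**Figure D2:**
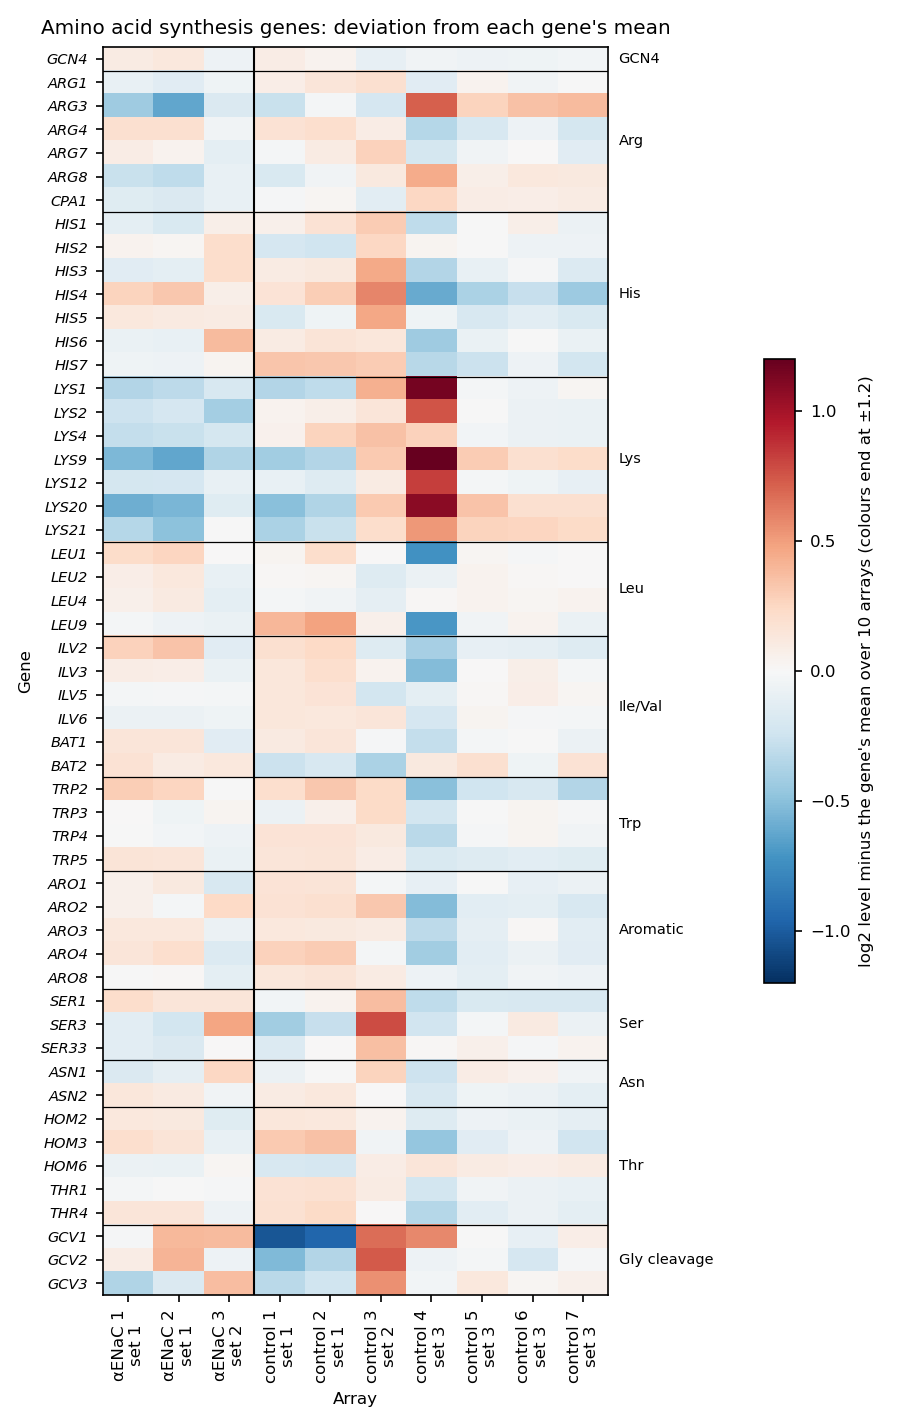
Level of each gene (rows, by family) in each of the 10 arrays (columns) minus the gene's mean over the arrays, on the log2 scale. LYS1, LYS9 and LYS20 are dark red in control 4, and GCV1 is dark blue in controls 1 and 2.

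With the set as a fixed block in the same fit, BAT2 was called higher and ARG1, HIS7, LYS4 and ARO8 lower. That is 1 of 53 higher and 4 lower, against backgrounds of 7.38% and 6.86%. In all 5 members (9.43%) were called, against 14.2% of all probe sets, a smaller share of the members than of all. With the set as a random block BAT2 was higher, and ARG1 and LYS4 lower (5.66% of members, against 11.2% of all, or 6.51% higher and 4.71% lower). In set 1 alone 28 members were called (52.8%), against 60.2% of all probe sets. Both fits with the set as a block take their spread largely from arrays within sets, near-identical apart from control 4. Set 3, which holds controls alone, adds nothing to the difference in the fixed block, but control 4 adds to the spread. The SE of LYS2 was 0.21 with the fixed block, against 0.16 without a block and 0.08 without control 4. That of LYS4 was 0.10, 0.11 and 0.11.

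GCN4 (YEL009C) was at 3.47, 3.50 and 3.32 in αENaC 1 to 3, against 3.28, 3.34 and 3.46 (lowest, median and highest) in the 7 controls. The groups overlapped, and the arrays of set 1 were the highest in both. The difference was 0.08 ± 0.07 (SE, adjusted p = 0.586), with a 95% interval of −0.08 to 0.23, and it was 0.05 in set 1 and 0.04 in set 2. GCN4 is bright, and its difference took the other sign when quantile normalization was replaced, at −0.36 with median centring, −0.20 with no further normalization and −0.17 on the deposited z scores, none of them past the test. Of 13 genes that control GCN4 translation 0 were called, with a median of 0.14 (set 1 −0.09, set 2 0.05). The kinase gene GCN2 was at 0.30 ± 0.12 (SE, adjusted p = 0.225), and GCD2 and GCN3, which encode subunits of the exchange factor eIF2B, were at 0.28 (adjusted p = 0.378) and 0.18 (adjusted p = 0.421). Of 4 genes for turnover of the Gcn4 protein 0 were called over all arrays. With the set as a fixed block 1, PCL5, was called higher, against 7.38% of all probe sets. The cyclin gene PCL5, itself a Gcn4 target whose product directs Gcn4 to degradation, was at −0.02 ± 0.36 (SE, adjusted p = 0.982) over all arrays. It was higher in αENaC within both sets, with 1.19 and 1.11 in αENaC 1 and 2 against 0.47 and 0.48 in controls 1 and 2, and 1.87 in αENaC 3 against 1.72 in control 3. The difference was 0.67 in set 1 and 0.15 in set 2, and 0.50 ± 0.11 with the set as a fixed block (adjusted p = 0.0238; 0.000209 to 0.998 over 24 alternatives). SSN3, the kinase of the Mediator complex, was at −0.35 ± 0.11 (SE, adjusted p = 0.144). CDC4 and PHO85 were at −0.06 (adjusted p = 0.777) and −0.05 (adjusted p = 0.885).

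The lysine genes were the family with the lowest median. Yeast makes lysine through α-aminoadipate: the homocitrate synthases Lys20 and Lys21 open the pathway, Lys4 (homoaconitase) and Lys12 (homoisocitrate dehydrogenase) follow, Lys2 reduces aminoadipate, and Lys9 and Lys1 make saccharopine and lysine. All 7 differences were negative, with a median of −0.41, against 0.02 over all probe sets and 0.05 over the 46 other members. None of the 7 passed the test. All 7 were negative within set 1 and within set 2 as well, with medians of −0.13 and −0.55. In set 1 LYS1 hardly differed, at −0.0067, LYS12 and LYS21 were each at −0.09, and LYS4 was furthest from 0 at −0.44. In set 2 the differences ran from −0.68 (LYS9) to −0.19 (LYS12). All 7 were negative under each of the 24 alternatives too, where the median ran from −0.54 to −0.13. Each culture was read as a whole, so less transcript per cell and fewer cells with the transcript cannot be told apart.

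LYS4 (YDR234W) was at 1.15, 1.16 and 1.22 in αENaC 1 to 3, against 1.36, 1.48 and 1.78 (lowest, median and highest) in the 7 controls. Every αENaC array lay below every control, and the difference was −0.36 ± 0.11 (SE, adjusted p = 0.123). It was −0.44 in set 1 and −0.56 in set 2, and −0.48 ± 0.10 with the set as a fixed block (adjusted p = 0.0224; 0.00395 to 0.998 over 24 alternatives). LYS2 (YBR115C) was at 1.84, 1.89 and 1.69 in αENaC 1 to 3, against 2.01, 2.14 and 2.84 (lowest, median and highest) in the 7 controls. Again the groups did not overlap, and the difference was −0.41 ± 0.16 (SE, adjusted p = 0.225). These 2 of 53 members (3.77%) were the ones whose αENaC arrays lay below all controls, against 3.62% of all probe sets, and 0 lay above, against 4.97%. The other 51 overlapped.

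LYS9 (YNR050C) had the largest difference of the 53. It was at 1.66, 1.57 and 1.83 in αENaC 1 to 3, against 1.78, 2.41 and 3.47 (lowest, median and highest) in the 7 controls, and the difference was −0.73 ± 0.30 (SE, adjusted p = 0.232), or 0.604-fold. The groups overlapped: within set 1 it was at 1.66 and 1.57 in αENaC 1 and 2 against 1.78 and 1.84 in controls 1 and 2, and within set 2 at 1.83 in αENaC 3 against 2.51 in control 3. LYS12 had the smallest difference of the family, at −0.24 ± 0.19 (SE, adjusted p = 0.513), with 2.24, 2.25 and 2.36 in αENaC 1 to 3, against 2.31, 2.41 and 3.28 (lowest, median and highest) in the 7 controls. The paralogs LYS20 and LYS21 differed by −0.60 ± 0.29 (SE, adjusted p = 0.298) and −0.40 ± 0.19 (SE, adjusted p = 0.305), and LYS1 by −0.41 ± 0.28 (SE, adjusted p = 0.455). LYS14, the activator of this pathway, was at 0.04, −0.001 and −0.24 in αENaC 1 to 3, against −0.24, −0.12 and 0.48 (lowest, median and highest) in the controls, a difference of 0.004 (adjusted p = 0.992).

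**Figure D3:**
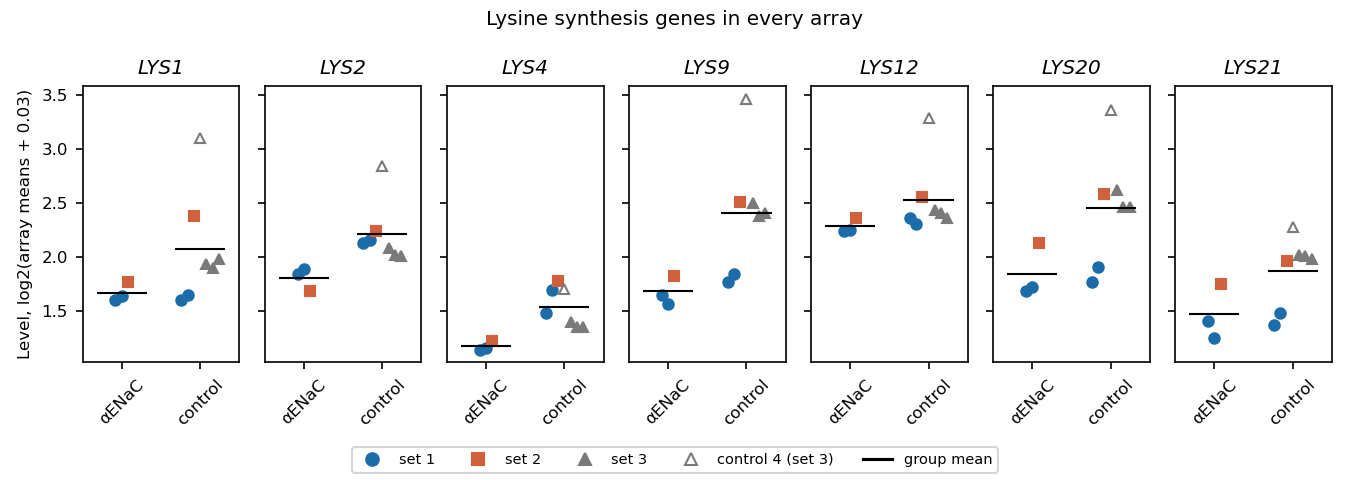
Level of the 7 lysine synthesis genes (log2 scale, y axis) in the αENaC arrays (left) and controls (right), with the set as colour and shape and the group mean as a line. Control 4 (open triangle) is the highest control for 6 of the 7 genes, LYS4 being the exception, and LYS2 and LYS4 are the genes without overlap.

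Control 4 stood apart in this family, and the lysine differences were smaller in size without it. LYS1 was at 3.10 in control 4 against 1.94, 1.90 and 1.98 in controls 5 to 7. LYS9 was at 3.47 in control 4 against 2.50, 2.38 and 2.41 in controls 5 to 7, and LYS20 at 3.36 in control 4 against 2.62, 2.47 and 2.46 in controls 5 to 7. All 7 lysine genes were higher in control 4 than in each of controls 5 to 7, by 0.84 in the median. Some control stood clear of the other 6, by Dixon's test for 7 values, in 9 of 53 members, against 7.08% of all probe sets, and in 6 of the 9 it was control 4. Over the 53 members 14 (26.4%) lay above and 33 (62.3%) below these 3 arrays, against 39.8% and 41.6% of all probe sets. Among those below were LEU1 at 1.77 in control 4 against 2.52, 2.48 and 2.50 in controls 5 to 7, LEU9 at 0.77 in control 4 against 1.43, 1.52 and 1.40 in controls 5 to 7 and ILV3 at 2.35 in control 4 against 2.87, 2.94 and 2.85 in controls 5 to 7. LYS14 was at 0.48 in control 4 against −0.22, −0.11 and −0.24 in controls 5 to 7. Without control 4 all 7 lysine differences were still negative, with a median of −0.33. LYS9 was then at −0.55 ± 0.19 (adjusted p = 0.157), LYS1 at −0.24 ± 0.16 (adjusted p = 0.443) and LYS2 at −0.30 ± 0.08 (adjusted p = 0.0829). LYS20, LYS4, LYS21 and LYS12 were at −0.45, −0.34, −0.33 and −0.12. Controls 5 to 7 were also higher than controls 1 and 2 on average in 5 of the 7 genes. The median without control 4 thus still draws on set 3, which holds controls alone. With the set as a fixed block all 7 were negative at a median of −0.24. Of the 7, LYS4 alone was called in that fit, where 6.86% of all probe sets were lower. The spread in that fit includes control 4.

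**Figure D4:**
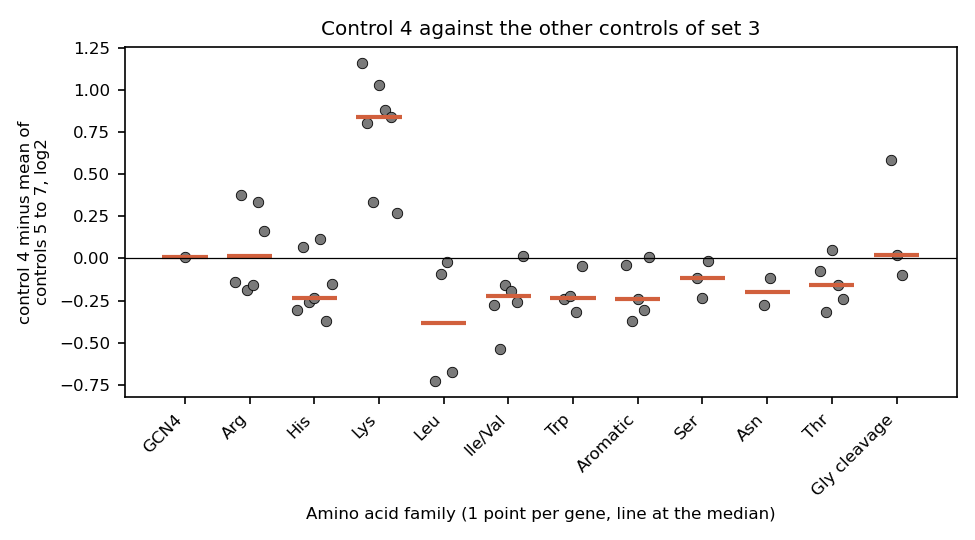
Level in control 4 minus the mean of controls 5 to 7 (log2, y axis) for each gene, by family, with a line at the family median. The lysine genes lie at 0.27 to 1.16, and LEU1 and LEU9 at −0.73 and −0.68.

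Besides lysine, arginine was the family with a negative median, at −0.16 (set 1 −0.17, set 2 −0.17), and 0 of 6 genes passed the test. ARG3, ornithine carbamoyltransferase, was at 1.33, 1.13 and 1.59 in αENaC 1 to 3, against 1.49, 2.03 and 2.47 (lowest, median and highest) in the 7 controls. Its αENaC arrays reached into the control range, and the difference was −0.58 ± 0.20 (SE, adjusted p = 0.18). That was −0.38 in set 1 and 0.04 in set 2, and the 4 controls of set 3, at 2.03 to 2.47, were the highest arrays. ARG8, the acetylornithine aminotransferase, and CPA1, the small subunit of carbamoyl phosphate synthetase, were at −0.31 ± 0.12 (SE, adjusted p = 0.199) and −0.19 ± 0.08 (SE, adjusted p = 0.252), and both groups overlapped. ARG1, argininosuccinate synthetase, was at 2.62, 2.57 and 2.66 in αENaC 1 to 3, against 2.57, 2.75 and 2.91 (lowest, median and highest) in the 7 controls. Its difference was −0.13 ± 0.08 (SE, adjusted p = 0.409) over all arrays, but −0.23 in set 1 and −0.25 in set 2, and −0.23 ± 0.06 with the set as a fixed block (adjusted p = 0.0309; 0.00652 to 0.998 over 24 alternatives). ARG4, argininosuccinate lyase, had the highest difference of the family, at 0.17 ± 0.13 (SE, adjusted p = 0.518), with 2.76, 2.76 and 2.52 in αENaC 1 to 3, against 2.22, 2.51 and 2.76 (lowest, median and highest) in the 7 controls. ARG7, the ornithine acetyltransferase, was at 0.01 (adjusted p = 0.978). Arg80, Arg81 and Arg82 act with Mcm1 to repress several of these genes when arginine is plentiful, and ARG80, ARG82 and MCM1 were at 0.16, 0.38 and −0.09 (adjusted p of 0.321 to 0.541). ARG81 had a mean below the background level, and no difference is given for it (adjusted p = 0.257).

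Histidine genes had a median of 0.10, with 4 of 7 positive over all arrays, but those within the sets were negative (set 1 −0.21, set 2 −0.24). HIS4, which encodes an enzyme of several steps including the last, was at 2.60, 2.66 and 2.40 in αENaC 1 to 3, against 1.73, 2.06 and 2.92 (lowest, median and highest) in the 7 controls. The controls spanned the αENaC arrays, since controls 4 to 7 lay at 1.73 to 2.06 and controls 1 to 3 at 2.50 to 2.92. The difference was 0.31 ± 0.24 (SE, adjusted p = 0.514), and 0.07 in set 1 and −0.52 in set 2. HIS1, the enzyme of the first step, had the lowest difference, at −0.11 ± 0.12 (SE, adjusted p = 0.67), with 2.57, 2.51 and 2.76 in αENaC 1 to 3, against 2.38, 2.75 and 2.99 (lowest, median and highest) in the 7 controls. HIS7, a glutamine amidotransferase and cyclase of the pathway, was at 0.71, 0.70 and 0.79 in αENaC 1 to 3, against 0.42, 0.70 and 1.09 (lowest, median and highest) in the 7 controls. Its difference was −0.04 ± 0.17 (SE, adjusted p = 0.925) over all arrays, −0.38 in set 1 and −0.27 in set 2, and −0.35 ± 0.07 with the set as a fixed block (adjusted p = 0.019; 0.000568 to 0.998 over 24 alternatives). HIS5, the histidinol phosphate aminotransferase, was at 0.16, HIS6, an isomerase, at 0.10, and HIS2, the histidinol phosphatase, at 0.13 (adjusted p of 0.523 to 0.747).

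HIS3, LEU2 and LYS2 are also used as selectable markers, on plasmids or as mutant alleles of laboratory strains. The plasmids of this series are of a type that carries URA3, which is no member. HIS3, imidazoleglycerol-phosphate dehydratase, was at −0.71, −0.69 and −0.37 in αENaC 1 to 3, against −0.92, −0.59 and −0.12 (lowest, median and highest) in the 7 controls, a difference of −0.02 ± 0.15 (SE, adjusted p = 0.958). The groups overlapped, and no array was below the background of −2.03. LEU2, β-isopropylmalate dehydrogenase, was at 2.60, 2.64 and 2.43 in αENaC 1 to 3, against 2.36, 2.53 and 2.56 (lowest, median and highest) in the 7 controls, with a difference of 0.06 ± 0.07 (SE, adjusted p = 0.722) and a 95% interval of −0.11 to 0.22. Its spread among the controls, an SD of 0.0709, was among the smallest of the members. LYS2 is described above. Of the 7 strain marker genes measured none was called over all arrays: besides these 3, URA3 was at −0.02, MET17 at −0.08, ADE2 at 0.0045 and CAN1 at −0.26 (adjusted p of 0.468 to 0.989). In the fixed block fit 2 of the 7 were lower, against 6.86% of all probe sets. URA3 was at 3.31, 3.29 and 3.19 in αENaC 1 to 3, against 2.74, 3.01 and 3.79 (lowest, median and highest) in the 7 controls. It was lower in αENaC within both sets, at −0.45 in set 1 and −0.59 in set 2, and the 4 controls of set 3 were the lowest arrays. Its difference was −0.49 ± 0.08 with the set as a fixed block (adjusted p = 0.00892; 0.000547 to 0.998 over 24 alternatives). CAN1, the arginine permease gene, was −0.34 in set 1 and −0.49 in set 2, and −0.39 (adjusted p = 0.0133) with the fixed block. All 7 lay above the background on average. A mutation that leaves the probed transcript in place would not be seen.

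Leucine genes had a median of 0.04 (set 1 0.10, set 2 −0.01) and branched-chain genes of 0.06 (set 1 −0.03, set 2 −0.05), with 0 of 4 and 0 of 6 past the test. LEU1, isopropylmalate isomerase, was at 2.72, 2.75 and 2.50 in αENaC 1 to 3, against 1.77, 2.50 and 2.70 (lowest, median and highest) in the 7 controls, a difference of 0.23 ± 0.17 (SE, adjusted p = 0.507) that was 0.12 without control 4. The paralogous isopropylmalate synthase genes LEU4 and LEU9 were at 0.02 (adjusted p = 0.895) and −0.08 ± 0.21 (SE, adjusted p = 0.877). Without control 4 LEU9 was at −0.20. LEU9 was at 1.45, 1.41 and 1.39 in αENaC 1 to 3, against 0.77, 1.52 and 1.96 (lowest, median and highest) in the 7 controls, so the αENaC arrays lay inside the control range, but within set 1 it was at 1.45 and 1.41 in αENaC 1 and 2 against 1.88 and 1.96 in controls 1 and 2. LEU3, the activator of the pathway, was at 0.07 (adjusted p = 0.726).

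ILV2, the catalytic subunit of acetolactate synthase, was at 3.00, 3.07 and 2.60 in αENaC 1 to 3, against 2.33, 2.62 and 2.97 (lowest, median and highest) in the 7 controls, a difference of 0.23 ± 0.15 (SE, adjusted p = 0.433). Its regulatory subunit gene ILV6 was at 2.89, 2.89 and 2.91 in αENaC 1 to 3, against 2.77, 3.00 and 3.11 (lowest, median and highest) in the 7 controls, a difference of −0.09 ± 0.08 (SE, adjusted p = 0.578). In both genes the groups overlapped. ILV5, the reductoisomerase, and ILV3, the dihydroxyacid dehydratase, were at −0.03 and 0.05 (adjusted p = 0.9 and 0.894). BAT2, the cytosolic branched-chain aminotransferase, was at 0.49, 0.42 and 0.44 in αENaC 1 to 3, against −0.06, 0.26 and 0.51 (lowest, median and highest) in the 7 controls. Controls 1 to 3 lay at 0.06, 0.12 and −0.06, below every αENaC array, while 3 of the 4 controls of set 3 reached their level. The difference was 0.19 ± 0.13 (SE, adjusted p = 0.461) over all arrays, 0.36 in set 1 and 0.50 in set 2, and 0.41 ± 0.07 with the set as a fixed block (adjusted p = 0.0117; 0.0015 to 0.998 over 24 alternatives). Its mitochondrial paralog BAT1 was at 0.07 ± 0.10 (SE, adjusted p = 0.75), with 0.02 in set 1 and −0.12 in set 2.

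**Figure D5:**
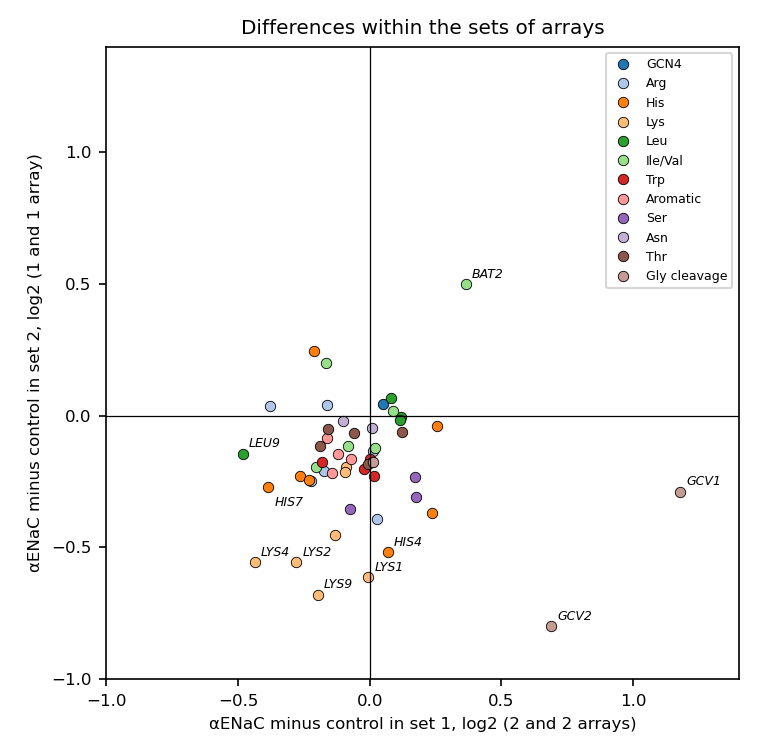
Difference within set 2 (y axis, 1 and 1 array) against that within set 1 (x axis, 2 and 2 arrays) for each gene, in log2, coloured by family. Most genes lie below 0 on the y axis, BAT2 is high on both axes, and GCV1 and GCV2 are high in set 1 and low in set 2.

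Of the tryptophan genes 0 of 4 and of the aromatic genes 0 of 5 were called, with medians of 0.05 (set 1 −0.01, set 2 −0.19) and 0.09 (set 1 −0.12, set 2 −0.16). Both medians were negative within each set, and in set 2 all 4 and all 5 genes were negative. With the set as a fixed block the aromatic median was −0.13. TRP2, anthranilate synthase, was at 1.90, 1.87 and 1.61 in αENaC 1 to 3, against 1.10, 1.41 and 1.93 (lowest, median and highest) in the 7 controls, a difference of 0.26 ± 0.18 (SE, adjusted p = 0.473). TRP4, anthranilate phosphoribosyltransferase, was at 1.42, 1.40 and 1.37 in αENaC 1 to 3, against 1.11, 1.47 and 1.60 (lowest, median and highest) in the 7 controls, a difference of −0.05 ± 0.10 (SE, adjusted p = 0.843). Both groups overlapped in these genes. TRP3, the partner subunit of Trp2, and TRP5, tryptophan synthase, were at −0.0081 and 0.11 (adjusted p = 0.975 and 0.625). ARO2, chorismate synthase, was at 2.10, 2.01 and 2.27 in αENaC 1 to 3, against 1.51, 1.91 and 2.36 (lowest, median and highest) in the 7 controls, a difference of 0.13 ± 0.17 (SE, adjusted p = 0.705). ARO8, an aromatic aminotransferase, was at 2.60, 2.61 and 2.48 in αENaC 1 to 3, against 2.49, 2.56 and 2.75 (lowest, median and highest) in the 7 controls. Its difference was −0.05 ± 0.08 (SE, adjusted p = 0.77) over all arrays, −0.14 in set 1 and −0.22 in set 2, and −0.17 ± 0.04 with the set as a fixed block (adjusted p = 0.0386; 0.0199 to 0.998 over 24 alternatives). ARO1, the enzyme of the central steps of the shikimate pathway, was at −0.0074. The paralogous DAHP synthase genes ARO3 and ARO4, which make the first intermediate, were at 0.089 and 0.085 (adjusted p of 0.696 to 0.976 for these 3 genes).

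Serine genes had a median of 0.06 (set 1 0.17, set 2 −0.31), asparagine genes of 0.04 (set 1 −0.05, set 2 −0.03) and threonine genes of 0.05 (set 1 −0.06, set 2 −0.07), and none was called. SER1, phosphoserine aminotransferase, was at 1.93, 1.86 and 1.86 in αENaC 1 to 3, against 1.41, 1.54 and 2.09 (lowest, median and highest) in the 7 controls, a difference of 0.23 ± 0.13 (SE, adjusted p = 0.37). SER33, a phosphoglycerate dehydrogenase, was at 2.13, 2.09 and 2.27 in αENaC 1 to 3, against 2.10, 2.27 and 2.62 (lowest, median and highest) in the 7 controls, a difference of −0.14 ± 0.10 (SE, adjusted p = 0.482). Its paralog SER3 was at 0.06 ± 0.24 (SE, adjusted p = 0.919) and varied with the set: 1.03 and 0.94 in αENaC 1 and 2 against 0.74 and 0.88 in controls 1 and 2, and 1.64 in αENaC 3 against 1.94 in control 3. The asparagine synthetase genes ASN1 and ASN2 were at −0.02 ± 0.12 (SE, adjusted p = 0.954) and 0.10 ± 0.09 (SE, adjusted p = 0.587). ASN1 was at 2.70, 2.76 and 3.12 in αENaC 1 to 3, against 2.63, 2.87 and 3.14 (lowest, median and highest) in the 7 controls. ASN2 was at 2.84, 2.81 and 2.66 in αENaC 1 to 3, against 2.51, 2.65 and 2.84 (lowest, median and highest) in the 7 controls. The groups overlapped in all 5 of these genes.

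HOM3, aspartate kinase, was at 2.84, 2.80 and 2.56 in αENaC 1 to 3, against 2.19, 2.58 and 3.00 (lowest, median and highest) in the 7 controls, a difference of 0.13 ± 0.17 (SE, adjusted p = 0.726). HOM6, homoserine dehydrogenase, was at 2.95, 2.94 and 3.05 in αENaC 1 to 3, against 2.82, 3.11 and 3.17 (lowest, median and highest) in the 7 controls, a difference of −0.06 ± 0.10 (SE, adjusted p = 0.781). HOM2, aspartate semialdehyde dehydrogenase, THR1, homoserine kinase, and THR4, threonine synthase, were at 0.05, −0.02 and 0.11 (adjusted p of 0.660 to 0.946). In the 5 genes the arrays of both groups overlapped, and HOM3 had the largest difference in size.

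Among the 53 members GCV2 and GCV1, of the glycine cleavage complex, had the differences that changed most between set 1 and set 2. The complex breaks glycine down in mitochondria and feeds one-carbon metabolism, and its genes are also known targets of Bas1. GCV1, the T subunit, was at −0.52, −0.12 and −0.13 in αENaC 1 to 3, against −1.54, −0.52 and 0.16 (lowest, median and highest) in the 7 controls, a difference of 0.36 ± 0.36 (SE, adjusted p = 0.632). Within set 1 it was at −0.52 and −0.12 in αENaC 1 and 2 against −1.54 and −1.46 in controls 1 and 2, higher in αENaC, and within set 2 at −0.13 in αENaC 3 against 0.16 in control 3, lower in αENaC. GCV2, the P subunit, split the same way, with 1.03 and 1.35 in αENaC 1 and 2 against 0.41 and 0.59 in controls 1 and 2 in set 1, and 0.88 in αENaC 3 against 1.68 in control 3 in set 2. Its difference over all arrays was 0.21 ± 0.23 (SE, adjusted p = 0.666). GCV1 and GCV2 were among 4 of 53 members whose effect differed between set 2 and set 1 in a limma interaction fit, against 17.4% of all probe sets. GCV3, the H protein, was at 0.97, 1.15 and 1.70 in αENaC 1 to 3, against 0.998, 1.34 and 1.87 (lowest, median and highest) in the 7 controls, a difference of −0.08 ± 0.19 (SE, adjusted p = 0.869). The family median was 0.21 over all arrays (set 1 0.69, set 2 −0.29). Of 10 purine and one-carbon genes under Bas1 none was called, with a median of 0.04 (set 1 −0.05, set 2 −0.32). Of these, ADE3, which encodes an enzyme of one-carbon metabolism, was at 0.24 ± 0.11 (SE, adjusted p = 0.268), and the purine genes ADE12 and ADE1 were at −0.26 ± 0.13 (SE, adjusted p = 0.311) and 0.13 ± 0.10 (SE, adjusted p = 0.503).

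Other enzymes of amino acid synthesis were not called over all arrays either. Of 28 listed 25 were measured, 0 rose and 0 fell, and the median was 0.0057. With the set as a fixed block 2 were higher, TYR1 and AGX1 at 0.65 (adjusted p = 0.0204), and 4 lower, ODC2 at −0.24 (adjusted p = 0.0173), ILV1 at −0.24 (adjusted p = 0.0373), GLY1 at −0.23 (adjusted p = 0.0407) and SER2 at −0.42 (adjusted p = 0.0434). Of all probe sets 7.38% were higher and 6.86% lower in that fit. Over all arrays AGX1 was at −0.03, ODC2 at −0.12, ILV1 at 0.01, GLY1 at −0.01 and SER2 at 0.00046. For AGX1 the controls of set 3, at −0.18 to 0.30, lay above every αENaC array. TYR1, prephenate dehydrogenase of the tyrosine branch, was at 1.25, 1.28 and 1.23 in αENaC 1 to 3, against 0.62, 0.82 and 1.01 (lowest, median and highest) in the 7 controls. Its αENaC arrays all lay above the controls, and the difference was 0.42 ± 0.09 (SE, adjusted p = 0.0508), 0.27 in set 1 and 0.31 in set 2, and 0.28 ± 0.06 with the set as a fixed block (adjusted p = 0.0173; 0.00223 to 0.998 over 24 alternatives). ARO9, an aromatic aminotransferase of tryptophan breakdown, was at −2.23, −2.03 and −2.39 in αENaC 1 to 3, against −1.92, −0.53 and 0.31 (lowest, median and highest) in the 7 controls. Its αENaC arrays all lay below the controls (adjusted p = 0.104). Their mean of −2.22 was below the background of −2.03, so no size is given for the difference. PRO1, the enzyme of the first step to proline, was at 0.37 ± 0.17 (SE, adjusted p = 0.276). Of 14 pathway regulators none was called over all arrays, with a median of 0.14. PHO2, a homeodomain partner of Bas1 and Pho4, was at 0.30, 0.25 and −0.46 in αENaC 1 to 3, against −0.76, −0.62 and −0.47 (lowest, median and highest) in the 7 controls, a difference of 0.64 ± 0.15 (SE, adjusted p = 0.0607), with 0.80 in set 1 and 0.16 in set 2. In the fixed block fit 1 of the 14 was higher and 1 lower, PHO2 at 0.59 (adjusted p = 0.0214) and CBF1, the gene of a centromere and promoter binding factor, at −0.33 (adjusted p = 0.0236). Against 7.38% higher and 6.86% lower of all probe sets, these counts are not a result about the regulators.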

How the data were processed

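Per the labels' protocols, hot phenol was used to extract RNA, and an Affymetrix 3' IVT Express kit to label it. The authors deposited a score for each of 10715 probe sets, which the values show to be a z score (each array has a mean of 0 and an SD of 1). Their probe summary and background correction are not stated in the labels or files. Each score was turned into units of the array mean (score minus the array's lowest, over the size of the lowest), 0.03 was added, log2 was taken and arrays were quantile normalized. This leaves any additive background unknown and understates changes of dim genes. Names came from the platform annotation through RefSeq R64 gene identifiers, and all 53 members matched 1 probe set each. The background of −2.03 is the 95th percentile of 1746 probe sets named outside S. cerevisiae. All 53 members lay above it in both groups.

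The 3 αENaC and 7 control arrays were compared in R 4.3.3 with the limma package, version 3.58.1, using moderated 2-sided tests without covariates (8 residual degrees of freedom) and Benjamini-Hochberg adjustment over 5498 probe sets at a threshold of 0.05. The members and lists were chosen with earlier results of these data known, so lists are described by counts and medians and not tested. Every member is named. Values by array are given for GCN4, the marker genes, members called in either fit and each family's extremes, with up to 3 genes of smallest p from other lists. TRP1 and 3 other listed genes were not analysed here. Replicate numbers 1 to 3 occur in both groups. After removal of group means, arrays that share a number had r = 0.41, 0.22 and 0.17 across probe sets, each above the limit set for calling them paired. Arrays that share a number also share a set, and whether these values reflect pairing or the set was not tested. No probe set used here reads the αENaC transcript, and so group labels could not be tested with it. There were 24 alternatives, of which 10 leave out 1 array each. They changed the block, the arrays, the scaling, the pseudocount, the filter, the variance model and the probe sets tested. The fit was tested on simulated data with noise drawn independently for each array. The likeness of arrays within a set was not simulated.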

Additional observations from a re-analysis of the deposited data

Results flagged for a closer look

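One control stood apart from the other 6 in 9 of the 53 genes (17%), against 7.08% of all probe sets, by a gap past Dixon's 95% critical value for 7 arrays, which chance gives in about 5% of groups. Control 4 was the one apart in 6 of them, high in LYS2 (2.84, next 2.24) and LYS12 (3.28, next 2.56), and low in HIS6 (−0.43, next −0.08), LEU1 (1.77, next 2.48), ILV3 (2.35, next 2.85) and TRP4 (1.11, next 1.39). Without control 4 the difference between αENaC and control was 0.03 in HIS6 (0.10 with it) and −0.04 in ILV3 (0.05 with it). In TRP4 it was −0.10 (−0.05 with it). LYS2, LYS12 and LEU1 are given above. Control 3 was high in the other 3, HIS5 (1.72, next 1.21), SER33 (2.62, next 2.32) and GCV2 (1.68, next 0.92). The 7 controls fall in 3 sets, so these gaps are not independent of each other.

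The difference between αENaC and control was itself different in set 2 and set 1 for 4 of 53 genes (7.55%), against 17.4% of all probe sets, in a limma fit with a group by set interaction that was chosen after seeing the data. Set 2 minus set 1, the effect changed by −1.49 ± 0.21 (adjusted p = 0.00859) for GCV2, −1.47 ± 0.39 (adjusted p = 0.0421) for GCV1, −0.61 ± 0.12 (adjusted p = 0.018) for HIS5 and −0.40 ± 0.11 (adjusted p = 0.0418) for SER1 (± SE). Set 2 has 1 array per group and the spread comes from near-identical arrays, so the part of single arrays in this was not tested.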

How the results depend on the processing

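The counts of 0 members higher and 0 lower were the same under 21 of the 24 alternatives, including each of the 10 fits without 1 array. They were 1 higher and 4 lower with the set as a fixed block, 1 and 2 with it as a random block, and 8 and 20 in set 1 alone (28 of 53, or 52.8%), where 60.2% of all probe sets passed and the 2 arrays of each group were near-identical. In set 1 alone 5 genes were called against their sign over all arrays: HIS6 at −0.21, ARO2 at −0.16, ARO4 at −0.12, HOM3 at −0.16 and HOM6 at 0.12, and the cause was not tested. With the replicate block (3 with 3 arrays) 0 members were called and the median over members was −0.09, with 0 calls among all 5498 probe sets. The same arrays without the block, title numbers 1 to 6 alone, gave 18 probe sets higher and 2 lower. The fit of all 3 with 7 arrays gave 95 calls. The replicate block changed no call among the members. Averaging near-identical arrays also gave 0 calls of 5498.

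Differences that did not pass the test changed sign in 17 members with median centring, in 17 with no further normalization, in 13 on the z scores and in 16 with the set as a fixed block. Larger ones were among them: HIS4 was at −0.13 with the set as a fixed block, against 0.31, TRP2 at −0.07 against 0.26, and with median centring ILV2 was at −0.09 against 0.23 and LEU1 at −0.03 against 0.23. The median over members was −0.21, −0.06, 0.07 and −0.09 in these fits, against −0.0023, 0.16, 0.03 and −0.02 over all probe sets. With median centring and with no further normalization the members thus lay further below all probe sets than in the main fit (0.0077 against 0.02). The 7 lysine genes stayed negative in all 24, at a median of −0.33 to −0.48 over the fits without 1 array. The number of arrays limits the precision: 1 set holds no replicate and 1 holds controls alone.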
